A study of Homo sapiens with 24 samples.

Results

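The p53 target genes described here are 33 genes known to be switched on by the tumour suppressor p53. They were given as a list of symbols and matched by Ensembl identifier in 3 tables of RNA sequencing counts, and all 33 were found among the 57356 genes listed in every table. No expression value entered the choice, although earlier results of these data were known when the list was drawn up. In unstressed cells p53 protein is kept low by MDM2, a ubiquitin ligase whose gene p53 itself activates. DNA damage and other stresses stabilise p53, which then binds response elements near its targets and raises genes of cell cycle arrest, apoptosis, DNA repair, metabolism and its own restraint. The CDKN1A product p21 and the BH3-only proteins are among the best known outputs of the pathway.

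The study lowered the gene FAM167A, also named DIORA1, in lines of human neuroblastoma, a tumour of the sympathetic nervous system, and measured RNA, in a project whose title names cell motility and the MRCK kinases. Both SK-N-SH, which holds neuroblast-like and flat adherent cells, and SK-N-AS are established lines. SK-N-SH cells received either a pool of siRNAs against FAM167A or a non-targeting siRNA control (NTC), with 5 libraries in each group. In the CRISPRi experiments a SpCas9-KRAB repressor was directed by the guide sgDIORA1 or by the control guide sgGal4 (NTC), in SK-N-SH (3 and 3 libraries) and in SK-N-AS (4 and 4 libraries), so that knockdown and control cells there share the repressor. No drug, radiation or other p53-activating treatment is named in the labels. The labels number the replicates without saying that they came from separate cultures, so the p-values measure the spread between these libraries, which may be technical. In bulk RNA, fewer cells of a type and less RNA per cell cannot be told apart.

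Libraries held 71464698 to 90255175 reads in the siRNA experiment, 11690515 to 21628076 in SK-N-SH CRISPRi and 29985858 to 104455853 in SK-N-AS CRISPRi. FAM167A itself fell from a mean of 188 to 65.2, from 242 to 3.22 and from 95.1 to 10.2 CPM in that order. CPM is a gene's count scaled to the size of its library, with that size adjusted by a normalisation factor (TMM). Adrenergic neuroblast markers such as the transcription factor gene HAND2 were present in both lines, while TH, the enzyme of catecholamine synthesis, was near 0 in both and SOX10 and FOXD3, markers of Schwann cell precursors, were at or near 0. PTPRC, the leukocyte antigen CD45, stood at 555 ± 16.5 CPM (SD, n = 4) in SK-N-AS controls, with the blood markers CD3E and HBB at 0 there, and at 0.639 ± 0.053 CPM (SD, n = 3) in SK-N-SH CRISPRi controls. Knockdown libraries 3 and 4 and control library 5 of the siRNA experiment had the lowest shares of ribosomal protein reads, 4.19, 4.18 and 4.27%, and calls that change without these 3 are given beside the results. In mitochondrial reads these knockdown libraries had the lowest shares of that experiment, 6.45 and 6.41%, and this control library the highest, 9.07%.

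Promoter sequence was available in RefSeq (GRCh38.p14) for 27 of the 33 genes, as 40 windows of 300 bases from 250 before to 50 after a transcription start. FBXO22, GADD45A, PHLDA3, RRM2B, TNFRSF10B and TP53INP1 had no entry. The windows were searched on both strands for the p53 response element, taken as 2 adjacent p53 decamers with at most 2 mismatches in 20 bases and intact cores, and for the exact decamer alone, which lies within the element and so overlaps it. The element was found in 2 of 40 windows (5.0%) and in 0.157% of all 35116 windows. At least 1 decamer was found in 7 of 40 (17.5%) and in 6.632% of all. A match describes letters in the window, not a bound site. The 2 windows with an element are shown whole. Their genes, the nuclease gene AEN and the death receptor gene FAS, later prove to differ in response under CRISPRi. Capitals mark the element.
AEN (chr15:88621090-88621389, plus strand): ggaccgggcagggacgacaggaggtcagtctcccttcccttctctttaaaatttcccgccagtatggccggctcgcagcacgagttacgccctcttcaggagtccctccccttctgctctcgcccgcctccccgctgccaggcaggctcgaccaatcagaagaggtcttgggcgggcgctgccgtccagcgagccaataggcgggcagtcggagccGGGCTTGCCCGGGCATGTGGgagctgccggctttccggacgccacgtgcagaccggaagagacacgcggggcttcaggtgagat
FAS (chr10:88991181-88991480, plus strand): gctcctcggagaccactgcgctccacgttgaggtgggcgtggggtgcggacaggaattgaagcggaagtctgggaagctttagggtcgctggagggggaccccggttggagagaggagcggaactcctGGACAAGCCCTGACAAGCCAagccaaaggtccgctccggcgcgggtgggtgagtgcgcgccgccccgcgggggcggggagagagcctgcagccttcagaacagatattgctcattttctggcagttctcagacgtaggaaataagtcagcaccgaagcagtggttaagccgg

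The AEN element begins 34 bases before the start and the FAS element 122 bases before one of the starts of that gene. The other 5 windows with a decamer are shown around it, because these genes also fell into different response patterns. Capitals mark each decamer, which in DDB2 occurs as a pair with a gap of 1 base, beginning 5 bases after the start.
DDB2 (chr11:47214724-47215023, plus strand): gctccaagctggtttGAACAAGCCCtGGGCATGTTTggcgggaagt
FDXR (chr17:74872945-74873244, minus strand): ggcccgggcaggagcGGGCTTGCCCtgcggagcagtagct
PLK2 (chr5:58460037-58460336, minus strand): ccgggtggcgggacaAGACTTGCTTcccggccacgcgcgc
RPS27L (chr15:63157428-63157727, minus strand): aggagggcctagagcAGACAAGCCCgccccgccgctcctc
SESN1 (chr6:109008939-109009238, minus strand): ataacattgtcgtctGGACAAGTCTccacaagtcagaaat

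The control libraries show what the p53 target genes do without knockdown. In SK-N-SH CRISPRi controls most of them stood above SK-N-AS CRISPRi controls, from a small excess to complete absence in SK-N-AS. Of the 33 genes 29 were higher in SK-N-SH, against 40.9% of the 17729 genes tested, and 1 was lower, against 39.2% (80.1% in either direction). All SK-N-SH libraries lay above all SK-N-AS libraries for 28 genes, against 40.2% of all genes, and below them for 1, against 38.5%. The median log2 difference was 1.23 over the 33 genes and 0.02 over all genes, and 22 of the 33 lay above the upper quartile of all genes and 0 below the lower quartile. Calls rest on quasi-likelihood fits in edgeR, with p adjusted by Benjamini-Hochberg over every gene tested and a threshold of 0.05, and higher, lower, rose and fell are used of called genes. Levels in this comparison are CPM scaled over the 12 control libraries together, as mean ± SD (n = 3 in SK-N-SH CRISPRi, 4 in SK-N-AS and 5 in SK-N-SH siRNA), and log2 differences carry their standard error. Each line was sequenced in its own experiment, with its own table, so line and experiment cannot be told apart.

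Among the arrest genes, CDKN1A (ENSG00000124762, GRCh38 chromosome 6, 36676460 to 36687339, plus strand), which encodes the cyclin-dependent kinase inhibitor p21, stood at 410.2, 381 and 425 CPM in the SK-N-SH libraries. In the SK-N-AS libraries it stood at 18.7, 17.3, 17.0 and 17.1 CPM. All SK-N-SH values thus lay far above all SK-N-AS values, 23.1-fold on average (log2 difference 4.53 ± 0.05, adjusted p = 1.72e-39). CDKN1A shares 4.79% of its exon bases with DINOL, a noncoding gene on the other strand. PLK2, a polo-like kinase induced by stress, was 4.55-fold higher in SK-N-SH, and PLK3, its paralogue, 2.03-fold. BTG2 (ENSG00000159388, chromosome 1), an antiproliferative cofactor of mRNA deadenylation, was the one gene lower in SK-N-SH, at 32.4, 43.0 and 42.2 CPM against 50.6, 52.0, 50.04 and 49.8 CPM in SK-N-AS (log2 difference -0.35 ± 0.06, adjusted p = 1.01e-05). Per kilobase of exon CDKN1A was the most abundant of the 33 genes in SK-N-SH controls (133 CPM per kb in the CRISPRi and 173 in the siRNA experiment), with BAX or TNFRSF10B next. BAX led in SK-N-AS with 31.7 CPM per kb, where CDKN1A stood at 5.74.

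The death receptor and membrane genes had the widest gap between the lines, with a median log2 difference of 3.44 over 5 genes, all higher in SK-N-SH. EDA2R (ENSG00000131080, chromosome X), a TNF receptor family member, had 1528 reads in the 3 SK-N-SH CRISPRi control libraries and 0 in the 4 SK-N-AS control libraries, at least 2567-fold higher with a floor of 3 reads over the group. PHLDA3 (ENSG00000174307, chromosome 1, minus strand), whose product restrains AKT at the membrane, stood at 114, 102 and 109.5 CPM in SK-N-SH and 0.52, 0.793, 0.788 and 0.535 CPM in SK-N-AS (167-fold, log2 difference 7.39 ± 0.09, adjusted p = 1.78e-37). The SK-N-AS values rest on 24 to 62 reads a library. FAS (ENSG00000026103, chromosome 10) stood at 44.8, 44.1 and 51.2 CPM against 4.22, 5.09, 3.45 and 4.95 CPM (10.9-fold, log2 difference 3.44 ± 0.10, adjusted p = 7.47e-23), also without overlap. FAS shares 8.93% of its exon bases with ACTA2, a smooth muscle actin gene on the other strand. The strand setting of the counting was not given in the sources used here. ACTA2 stood at 478 ± 35.4, 9.32 ± 1.22 and 17.1 ± 1.76 CPM in the SK-N-SH CRISPRi, SK-N-AS and SK-N-SH siRNA controls, where FAS stood at 46.7 ± 3.89, 4.43 ± 0.757 and 23.2 ± 2.22. The part of ACTA2 reads in the FAS values was not tested. PHLDA3 likewise shares 19.06% of its exon bases with a gene on the same strand, AC096677.2. TNFRSF10B, the TRAIL receptor DR5, and SUSD6, a membrane protein induced by DNA damage, were 1.58-fold and 1.40-fold higher.

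In the mitochondrial and apoptosis group 7 of 8 were higher in SK-N-SH. CYFIP2, a WAVE complex subunit that p53 induces, stood at 94.3, 88.5 and 93.6 CPM in SK-N-SH and 4.32, 4.23, 4.29 and 4.38 CPM in SK-N-AS (21.4-fold, log2 difference 4.42 ± 0.06, adjusted p = 9.51e-36). SPATA18, known for a role in mitochondrial quality control, stood at 8.797, 7.51 and 8.15 CPM against 0.366, 0.595, 0.458 and 0.435 CPM (18.2-fold, log2 difference 4.18 ± 0.20, adjusted p = 6.4e-20). For both genes every SK-N-SH library exceeded every SK-N-AS library. BBC3, which encodes the BH3-only protein PUMA, stood at 23.2, 20.9 and 21.6 CPM against 6.92, 5.55, 6.17 and 6.79 CPM (3.41-fold), and PMAIP1, which encodes NOXA, was 2.58-fold higher. TRIAP1 was not called (-0.08 ± 0.06, adjusted p = 0.173), but it was lower in SK-N-SH without SK-N-SH CRISPRi control library 2 (adjusted p = 0.0478), with no filter on low counts (0.0163) and with the siRNA controls in place of the CRISPRi controls (-0.26, 8.4e-05). All 5 genes of the repair and nucleotide group were higher in SK-N-SH, from 2.27-fold for RRM2B, a ribonucleotide reductase subunit, to 5.53-fold for RPS27L, a ribosomal protein paralogue. Of the metabolic genes SESN1, a stress-induced inhibitor of mTORC1 signalling, was 8.16-fold higher, while TIGAR (0.17 ± 0.15, adjusted p = 0.305) and TP53I3 (-0.11 ± 0.07, adjusted p = 0.167) were not called. With the SK-N-SH siRNA controls in place of the CRISPRi controls, TIGAR was lower in SK-N-SH (-1.12, adjusted p = 7.18e-08) and TP53I3 higher (0.54, adjusted p = 4.52e-10). With the CRISPRi controls TP53I3 was lower in SK-N-SH without SK-N-SH CRISPRi control library 1 (0.0483) and with no filter on low counts (0.0192). TIGAR shares 42.59% of its exon bases with other genes on its strand, so its counts are uncertain. MDM2 stood at 125, 116 and 125 CPM in SK-N-SH and 53.9, 61.5, 62.4 and 58.8 CPM in SK-N-AS (2.06-fold), and PPM1D, the phosphatase WIP1 that also restrains p53, was 1.21-fold higher in SK-N-SH. FBXO22, which shares 16.19% of its exon bases with the opposite-strand gene NRG4, was higher by little (log2 difference 0.17 ± 0.06, adjusted p = 0.00499) and lost its call without SK-N-SH CRISPRi control library 2 (adjusted p = 0.199) and with no filter on low counts (0.172).

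**Figure D1:**
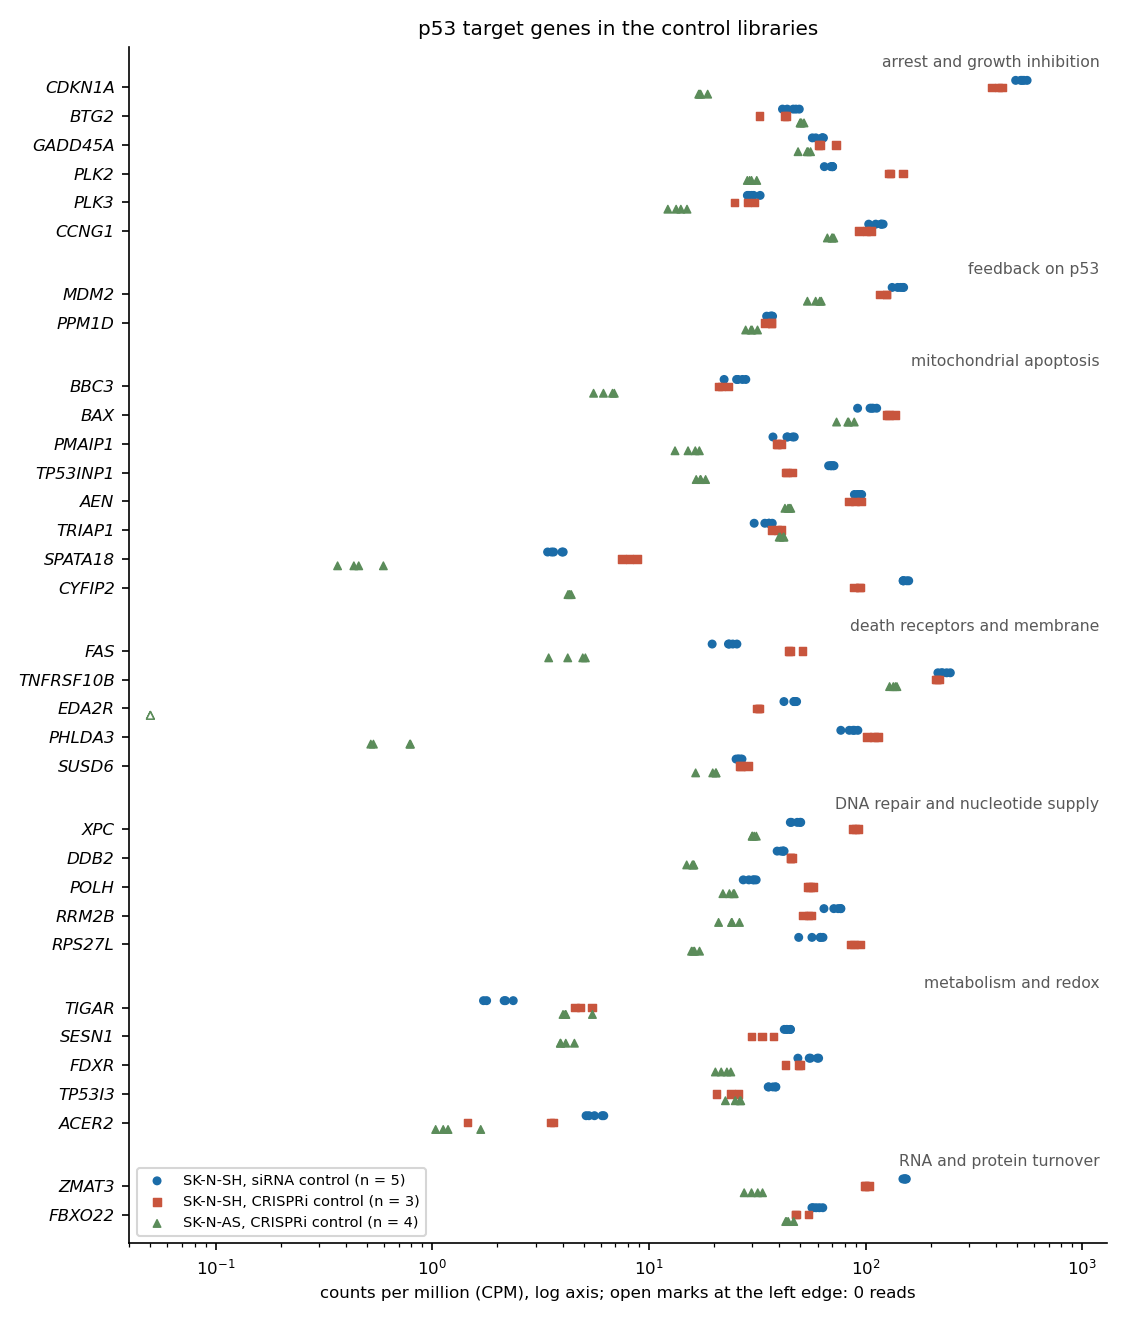
Level of each p53 target gene in CPM (log axis, scaled over the 12 control libraries together) in every control library, by role. Circles are SK-N-SH siRNA controls (n = 5), squares SK-N-SH CRISPRi controls (n = 3) and triangles SK-N-AS CRISPRi controls (n = 4). Open marks at the left edge are libraries with 0 reads. The gap between squares and triangles is widest for EDA2R, PHLDA3, CDKN1A, CYFIP2, SPATA18 and FAS, while BTG2 and TRIAP1 lie close together in all groups.

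Controls of the same line also differed between experiments. Between SK-N-SH siRNA and SK-N-SH CRISPRi controls 16 of the 33 genes were higher with siRNA, against 37.2% of 21679 genes, and 11 lower, against 31.3% (68.5% in either direction). The libraries were wholly apart for 11 of the 33 genes upward, against 36.4%, and for 10 downward, against 30.4%. The median difference was 0.11 (log2), and the largest in size was that of TIGAR (-1.27 ± 0.16). CDKN1A was 1.30-fold higher in the siRNA controls, and PLK2, FAS and SPATA18 were 1.96-fold, 2.02-fold and 2.19-fold lower. Single libraries ended 6 of these calls. TNFRSF10B lost its call without any 1 of the CRISPRi controls or of siRNA controls 1 to 4 (adjusted p = 0.0591 to 0.168), and TRIAP1 without CRISPRi control 1 (0.097) or 2 (0.157) or siRNA control 5 (0.0572). BTG2 lost it without CRISPRi control 1 (0.196), DDB2 without CRISPRi control 1 or 3 (0.0664 and 0.0526), BBC3 without CRISPRi control 2 or 3 (0.0601 and 0.0529) and FDXR without CRISPRi control 2 (0.0509). PMAIP1 passed without siRNA control 5 (0.19, adjusted p = 0.00211), the one control among the 3 libraries low in ribosomal protein reads. A list of 15 proliferation genes repressed through p21 and the DREAM complex stood lower in the siRNA controls in 15 of 15 cases (median -1.07). The part of proliferation in these levels was not tested.

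In the siRNA experiment many p53 target genes fell in SK-N-SH, most of these by little, and none rose. Of the 33 genes 19 fell, against 6.98% of the 21018 genes tested, and 0 rose, against 2.55% (9.53% in either direction). The knockdown libraries lay wholly below the control libraries for 12 genes, against 6.08% of all genes, and wholly above for 0, against 2.65%. The log2 fold change was negative for 31 of 33, with a median of -0.20 beside 0.01 over all genes, and 24 of 33 lay below the lower quartile of all genes. Without the 3 libraries low in ribosomal protein reads, an alternative chosen after the libraries were seen, 24 fell and 0 rose. The shares of all genes above belong to the fit with all libraries, not to this alternative. The calls gained were GADD45A (-0.19, adjusted p = 0.0113), MDM2 (-0.15, 0.0296), RPS27L (-0.21, 0.00297), FDXR (-0.24, 0.00297) and ACER2 (-0.42, 0.0186). With library totals alone as scaling 14 fell and 0 rose, and all genes then split 1315 higher to 1068 lower in place of 536 to 1468. The adrenergic markers had 2 genes higher and 0 lower of 13 tested, with a sum of 5105 to 5608 CPM in control and 5126 to 5963 CPM in knockdown libraries. The mesenchymal markers had 0 higher and 7 lower of 10, with a sum of 2642 to 2859 CPM in control and 2109 to 2380 CPM in knockdown libraries. Their part in the falls was not tested.

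**Figure D2:**
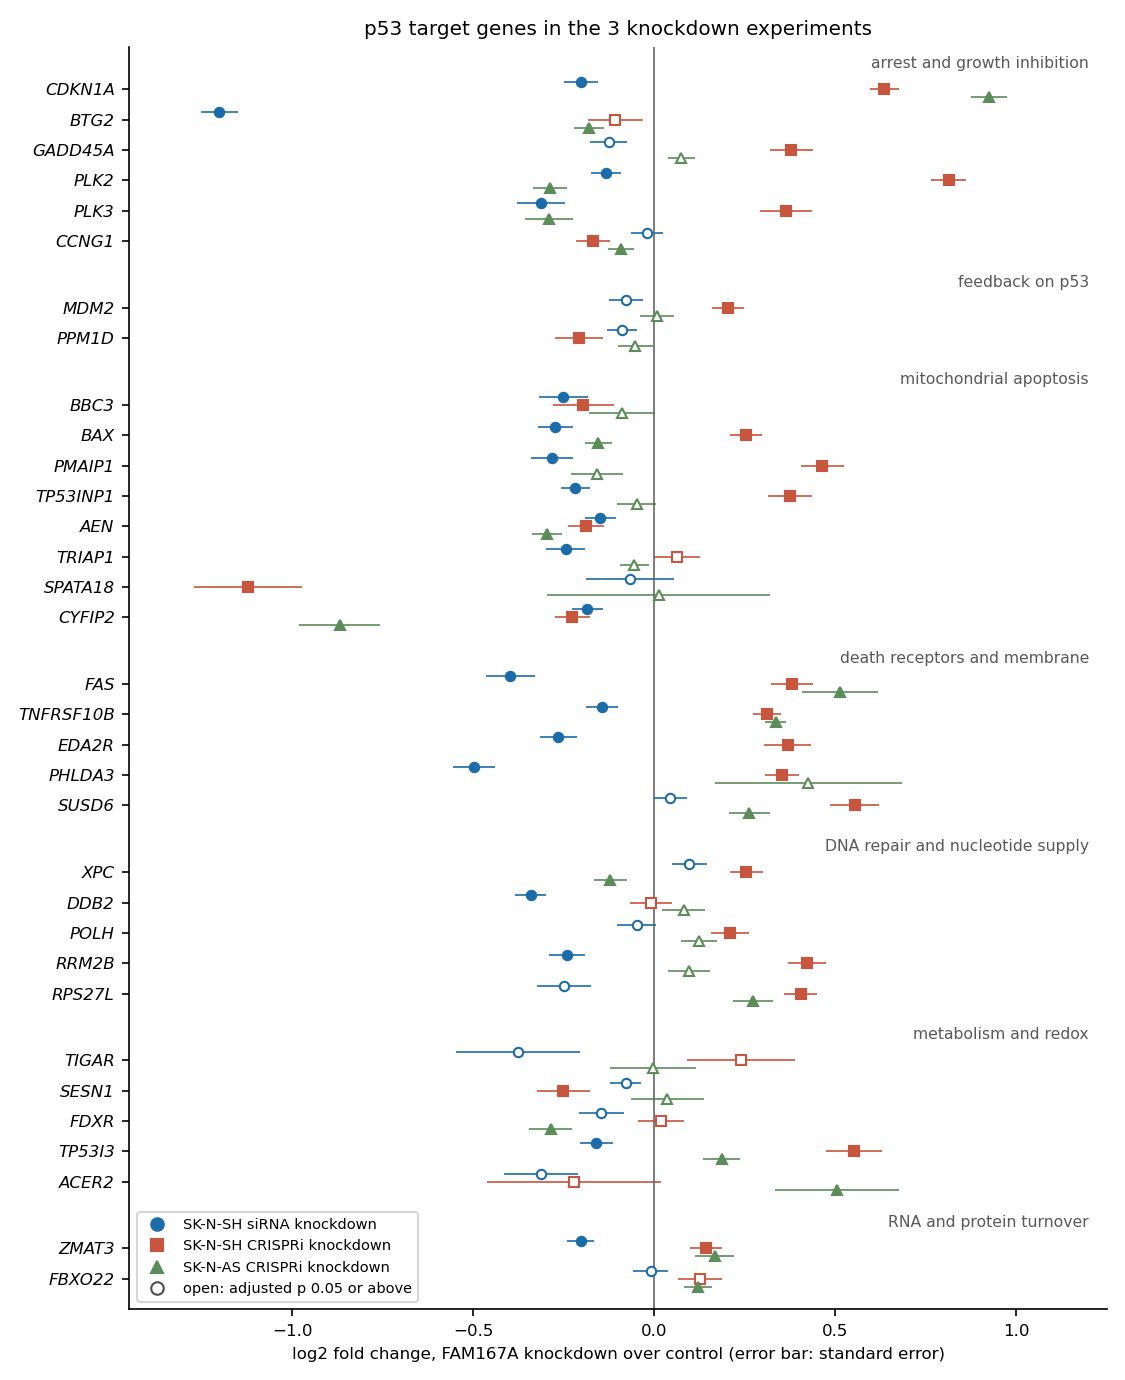
Log2 fold change of each p53 target gene, knockdown over control, with its standard error, by role. Circles are SK-N-SH siRNA, squares SK-N-SH CRISPRi and triangles SK-N-AS CRISPRi, and filled marks passed an adjusted p of 0.05. The filled circles all lie left of 0, and 19 of the 26 filled squares lie right of it. EDA2R has no triangle because it had 0 reads in SK-N-AS.

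BTG2 changed most. Its level was 47.8, 45.1, 50.9, 49.2 and 42.6 CPM in the control libraries and 21.4, 20.1, 20.3, 20.004 and 20.7 CPM in the knockdown libraries. Every knockdown value lay under the lowest control value, 2.30-fold lower on average (log2 fold change -1.20 ± 0.05, adjusted p = 1.75e-13). CDKN1A stood at 536, 548, 554, 574 and 507 CPM in controls and 433, 494, 483, 462 and 491 CPM after knockdown, without overlap but with a smaller fall (log2 fold change -0.20 ± 0.05, adjusted p = 0.0055). PLK3 went from 31.4, 29.5, 30.7, 33.6 and 29.8 CPM to 20.7, 24.9, 28.0, 26.8 and 24.3 CPM (log2 fold change -0.31 ± 0.07, adjusted p = 0.00273), again without overlap. Of the other arrest genes PLK2 fell (-0.13 ± 0.04, adjusted p = 0.0444), while GADD45A, which binds PCNA and p21, and CCNG1, cyclin G1, were not called (-0.13 and -0.02). The PLK2 call was lost without any single one of knockdown libraries 1 to 3 or control libraries 1 to 4 (adjusted p = 0.0567 to 0.129). It was also lost with library totals alone (0.215), median-ratio scaling (0.054), no filter on low counts (0.0782) and a block for replicate number (0.101). GADD45A was called lower without knockdown library 3 (adjusted p = 0.0395). The feedback genes were not called with all libraries. MDM2 stood at 153, 138, 154, 149.5 and 145 CPM in control and 137, 129, 155, 144 and 135 CPM in knockdown libraries, which overlapped (log2 fold change -0.08 ± 0.05, adjusted p = 0.361). MDM2 was called lower without the 3 libraries low in ribosomal protein reads, as given above. PPM1D had -0.09 ± 0.04, adjusted p = 0.22.

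Among membrane genes PHLDA3 stood at 90.2, 87.2, 91.4, 94.98 and 79.1 CPM in control and 53.9, 61.0, 64.5, 66.4 and 67.9 CPM in knockdown libraries. The ranges did not overlap, and the level fell 1.41-fold (log2 fold change -0.50 ± 0.06, adjusted p = 4.69e-06). FAS went from 25.1, 24.4, 23.99, 26.3 and 20.2 CPM to 16.8, 17.9, 19.5, 17.1 and 19.8 CPM, again without overlap (log2 fold change -0.40 ± 0.07, adjusted p = 0.00025). ACTA2, the overlapping gene, went from 17.7 ± 1.82 to 13.8 ± 1.11 CPM (SD, n = 5 each). EDA2R fell (-0.27 ± 0.05, adjusted p = 0.00104), TNFRSF10B fell by less (-0.14 ± 0.05, adjusted p = 0.0437), and SUSD6 was not called (0.04 ± 0.05, adjusted p = 0.667). Leaving out knockdown library 1, 4 or 5 or control library 1, 2, 3 or 4 ended the TNFRSF10B call (adjusted p = 0.0547 to 0.166). Library totals alone (0.204), median-ratio scaling (0.054) and a block for replicate number (0.091) ended it too.

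In the apoptosis group 7 of 8 fell. PMAIP1 stood at 47.4, 45.3, 48.3, 44.7 and 38.5 CPM in control and 35.7, 36.6, 34.5, 36.8 and 40.7 CPM in knockdown libraries (log2 fold change -0.28 ± 0.06, adjusted p = 0.00186). BBC3 stood at 26.5, 28.0, 26.2, 28.9 and 22.9 CPM in control and 19.3, 21.8, 22.0, 23.9 and 24.3 CPM in knockdown libraries (log2 fold change -0.25 ± 0.07, adjusted p = 0.0178), and in both genes the groups overlapped in part. The other log2 falls were those of BAX, the pore-forming effector (-0.27), TRIAP1, an inhibitor of apoptosis (-0.25), TP53INP1, a nuclear cofactor of p53 (-0.22), CYFIP2 (-0.19) and AEN, an apoptosis-enhancing nuclease (-0.15). Only TP53INP1 and CYFIP2 among these 7 had knockdown libraries wholly below the controls. The BBC3 call was lost without control library 2 or 4 (adjusted p = 0.0632 and 0.0708), and the AEN call without knockdown library 1 or 4 or control library 1, 2, 3 or 4 (0.0576 to 0.0957). With library totals alone neither AEN (adjusted p = 0.117) nor BBC3 (0.0641) passed, and with a block for replicate number AEN did not pass (0.0618). SPATA18 stood near its control level (-0.07 ± 0.12, adjusted p = 0.805).

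Of the repair and nucleotide group DDB2, the damage sensor of nucleotide excision repair, stood at 42.9, 40.5, 41.9, 42.9 and 43.3 CPM in controls and 32.2, 34.2, 34.1, 32.3 and 34.1 CPM after knockdown. The ranges did not overlap (log2 fold change -0.34 ± 0.04, adjusted p = 5.72e-06). RRM2B also fell (-0.24 ± 0.05, adjusted p = 0.00162), while XPC, POLH and RPS27L were not called. RPS27L was near the threshold (-0.25 ± 0.08, adjusted p = 0.0503) and passed without knockdown library 5 (0.0273) or control library 5 (0.00153). It also passed with DESeq2 (0.014), no filter on low counts (1.57e-05) and a filter at a mean of 1 CPM (0.0367). In the metabolic group TP53I3, a quinone oxidoreductase, fell (-0.16 ± 0.05, adjusted p = 0.0299), and this call was lost without knockdown library 1 or 2 or control library 1, 3 or 4 (0.0709 to 0.0954). Library totals alone (0.15) and a block for replicate number (0.0716) also ended the TP53I3 call. TIGAR had the lowest log2 fold change of the metabolic group (-0.38) but was not called. It stood at 2.10 ± 0.285 CPM in controls and 1.62 ± 0.418 CPM after knockdown (SD, n = 5 each). SESN1, at 45.1 ± 1.16 and 42.7 ± 1.68 CPM, was not called either. ACER2, an alkaline ceramidase, had -0.31 ± 0.10, adjusted p = 0.0584 and passed without knockdown library 3 (0.0411) or control library 5 (0.0321). It also passed with DESeq2 (0.036) and with no filter on low counts (0.0335). FDXR, ferredoxin reductase, had -0.15 ± 0.06, adjusted p = 0.173 and passed without control library 5 (0.0198) or with no filter on low counts (0.0471). ZMAT3, an RNA-binding splicing regulator, fell from 156 ± 2.13 to 136 ± 5.43 CPM (-0.20 ± 0.04, adjusted p = 0.000646), and FBXO22, a ubiquitin ligase adaptor, was not called (-0.01).

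In SK-N-SH CRISPRi the direction was mostly the other way. Of the 33 genes 19 rose, against 27.7% of the 15391 genes tested, and 7 fell, against 28% of all genes (55.8% in either direction). In the same 26 cases the knockdown and control libraries did not overlap, with 30.2% of all genes wholly above and 30.5% wholly below. The median log2 fold change was 0.24 against -0.01 over all genes, 16 of the 33 lay above the upper quartile of all genes and 1, SPATA18, below the lower quartile. With library totals alone the median over all genes moved to -0.14 and that of the 33 genes to 0.11, so the distance between them was 0.245 in both. Fewer genes rose and more fell over all genes too, 2791 and 6397 in place of 4269 and 4313. With that scaling 16 rose and 9 fell, and MDM2, POLH and ZMAT3 lost their calls (adjusted p = 0.139, 0.196 and 0.814). BTG2 and DDB2 were called lower with it (0.0124 and 0.0413).

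The cell type markers moved strongly in the same libraries, and so did shares of the library. Ribosomal protein reads made up 3.74, 3.78 and 3.85% of the knockdown and 5.13, 5.27 and 5.19% of the control libraries, without overlap, and mitochondrial reads 6.36, 5.72 and 6.56% against 5.44, 5.49 and 4.66%. Of the adrenergic markers 13 of 13 tested fell, with a sum of 3487 to 3789 CPM in control and 1190 to 1287 CPM in knockdown libraries. Mesenchymal markers had 7 of 10 higher and 2 lower, with a sum of 5905 to 6771 CPM in control and 10980 to 11600 CPM in knockdown libraries. Of the 4 tested fibroblast and smooth muscle markers 4 rose. The part of markers and of these shares in the rise of the p53 target genes was not tested.

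CDKN1A stood at 397, 365 and 402 CPM in the control libraries and 594, 621 and 594 CPM in the knockdown libraries. The groups were far apart, and the level rose 1.55-fold (log2 fold change 0.63 ± 0.04, adjusted p = 2.18e-16). PLK2 rose most of the 33, from 144, 123 and 123 CPM to 222, 225 and 235 CPM (1.76-fold, log2 fold change 0.81 ± 0.05, adjusted p = 1.03e-14). GADD45A and PLK3 rose as well (0.38 ± 0.06 and 0.36 ± 0.07), and CCNG1 fell (-0.17 ± 0.05). BTG2 was not called: its control libraries stood at 31.3, 41.2 and 39.9 CPM and its knockdown libraries, at 37.1, 34.2 and 34.2 CPM, lay between them (log2 fold change -0.11 ± 0.08, adjusted p = 0.245). Without control library 1, the low one, BTG2 was called lower (adjusted p = 0.00964). MDM2 rose from 121, 111 and 118 to 139, 134 and 129.7 CPM (log2 fold change 0.20 ± 0.04, adjusted p = 0.000152), and PPM1D fell (-0.21 ± 0.07, adjusted p = 0.00854), a call lost without knockdown library 3 (0.066).

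All 5 death receptor and membrane genes rose. SUSD6 went from 27.8, 25.5 and 24.9 CPM to 37.6, 36.9 and 39.6 CPM (log2 fold change 0.55 ± 0.07, adjusted p = 6.27e-09). FAS rose from 44.7 ± 3.28 to 58.6 ± 2.09 CPM (SD, n = 3 each, log2 0.38 ± 0.06), EDA2R from 30.6 ± 0.344 to 39.5 ± 2.72 CPM (0.37 ± 0.07), PHLDA3 from 104 ± 6.59 to 132 ± 5.91 CPM (0.35 ± 0.05) and TNFRSF10B from 205 ± 1.03 to 254 ± 9.33 CPM (0.31 ± 0.04). Knockdown libraries lay above all controls for each of them. ACTA2 went from 458 ± 33.7 to 739 ± 5.11 CPM in the same libraries as FAS.

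The apoptosis genes split. PMAIP1 rose from 39.7, 37.1 and 37.1 CPM to 54.0, 53.4 and 49.2 CPM (log2 fold change 0.46 ± 0.06, adjusted p = 1.73e-08). TP53INP1 (0.37 ± 0.06) and BAX (0.25 ± 0.04) also rose, and SPATA18, CYFIP2, BBC3 and AEN fell. SPATA18 had the largest fall of the 33 genes, from 8.52, 7.19 and 7.72 CPM to 3.14, 4.18 and 3.39 CPM (2.18-fold, log2 fold change -1.12 ± 0.15, adjusted p = 3.69e-08). The groups did not overlap although the gene is low. The log2 fold change of CYFIP2 was -0.23 ± 0.05 and that of AEN -0.19 ± 0.05. BBC3 went from 22.5, 20.1 and 20.5 CPM to 16.8, 19.8 and 18.1 CPM. Its call was near the threshold (-0.20 ± 0.08, adjusted p = 0.0456) and was lost without knockdown library 1 or 3 or control library 1 or 3 (adjusted p = 0.0687 to 0.234), and DESeq2 did not call it (adjusted p = 0.121). No filter on low counts (0.125) and a block for replicate number (0.0574) ended the BBC3 call too. TRIAP1 was not called (0.06 ± 0.06, adjusted p = 0.411).

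Of the repair and nucleotide group, in which RPS27L was listed, RRM2B (0.42 ± 0.05) and RPS27L (0.40 ± 0.05) rose. XPC, the lesion recognition factor (0.25 ± 0.05), and POLH, the translesion polymerase eta (0.21 ± 0.05), rose too. XPC shares 30.39% of its exon bases with genes on the other strand. DDB2, which fell with siRNA, stood at 44.3, 43.1 and 42.5 CPM in control and 44.7, 41.9 and 42.2 CPM in knockdown libraries, which overlapped (-0.01 ± 0.06, adjusted p = 0.905). TP53I3 rose from 25.1, 19.7 and 22.7 CPM to 35.2, 32.1 and 31.0 CPM (0.55 ± 0.08, adjusted p = 1.74e-07), without overlap. SESN1 fell (-0.25 ± 0.07, adjusted p = 0.00368), a call lost without control library 3 (0.111), and TIGAR, FDXR and ACER2 were not called. ZMAT3 rose by little (0.14 ± 0.05, adjusted p = 0.0071), which was lost without knockdown library 2 (0.0619), and FBXO22 was not called (0.13 ± 0.06, adjusted p = 0.0749) but passed without knockdown library 2 (0.0295) or control library 2 (0.00603). FBXO22 also passed with no filter on low counts (0.0432).

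**Figure D3:**
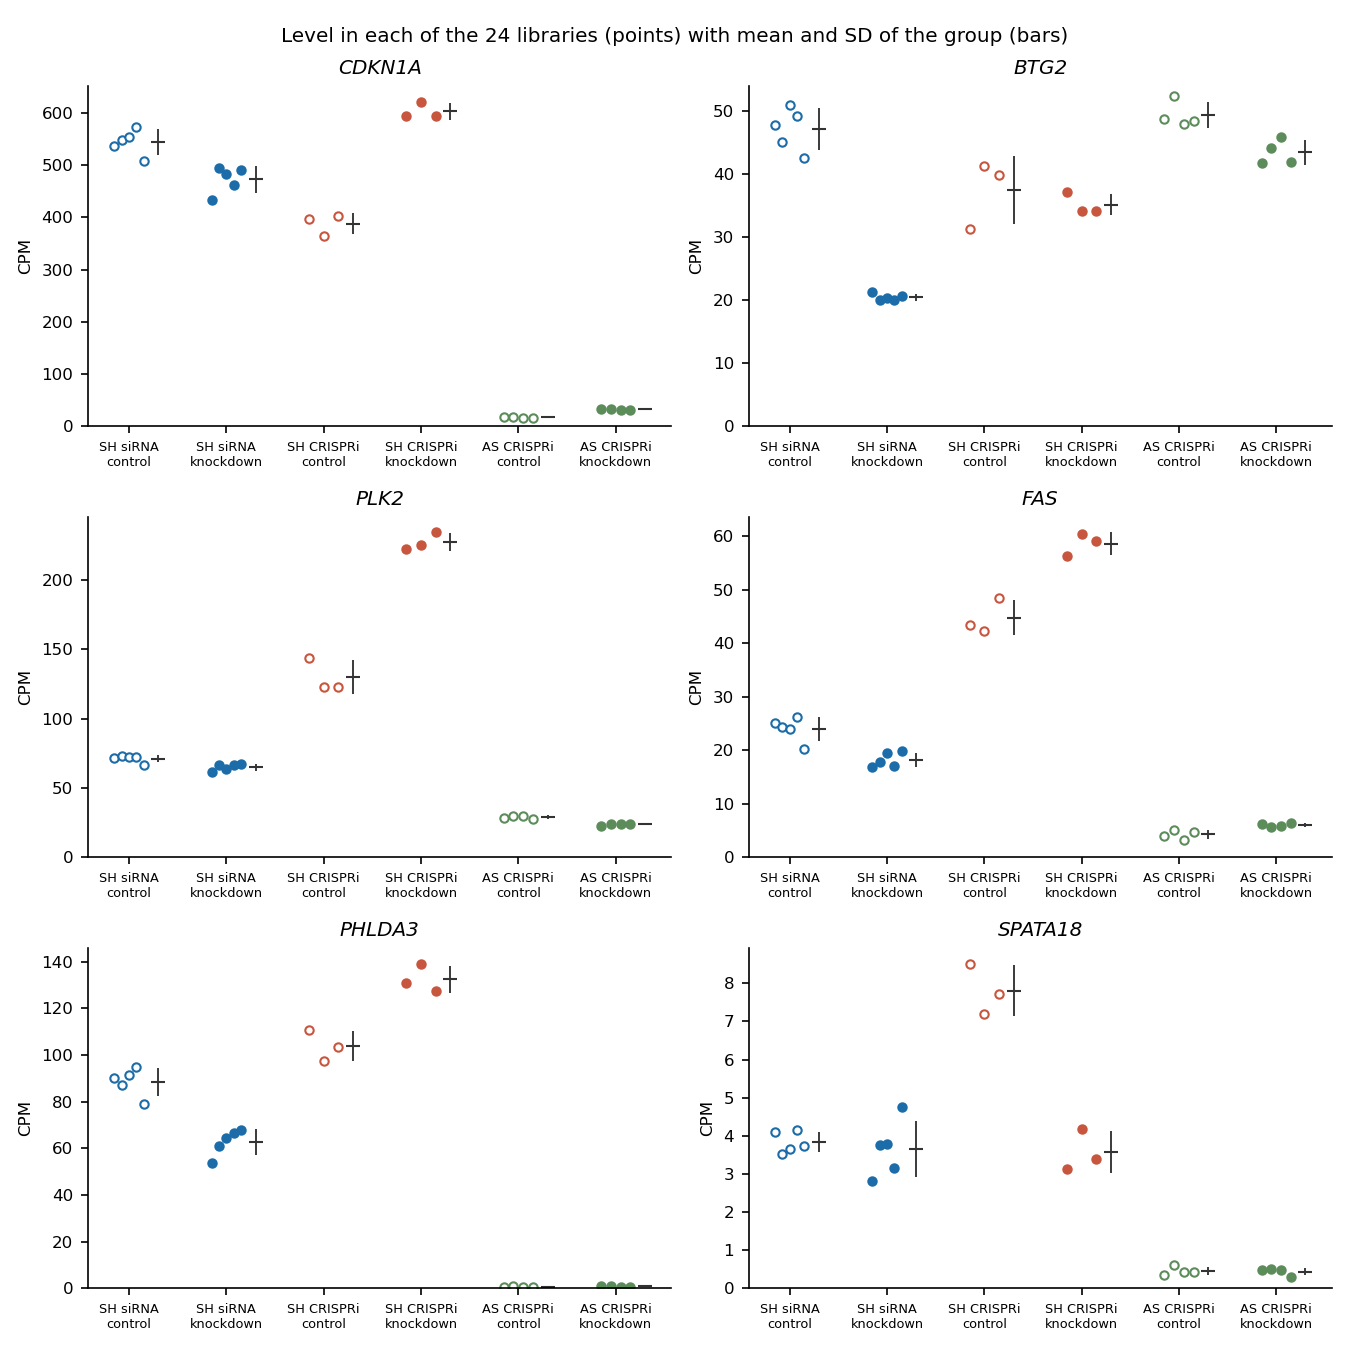
Level in CPM of CDKN1A, BTG2, PLK2, FAS, PHLDA3 and SPATA18 in each of the 24 libraries (points, open for control and filled for knockdown), with the mean and SD of each group beside them. Each experiment is scaled on its own. CDKN1A, PLK2, FAS and PHLDA3 are lower after siRNA and higher after CRISPRi in SK-N-SH, BTG2 is lower after siRNA, and SPATA18 is lower after CRISPRi in SK-N-SH.

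In SK-N-AS, the line with low control levels, 9 of the 32 genes with enough reads rose, against 15.2% of the 19277 genes tested, and 9 fell, against 15.5% (30.6% in either direction). Knockdown libraries lay wholly above controls for 8 genes, against 14.4% of all genes, and wholly below for 7, against 14.6%. The median log2 fold change was 0.01 over the 32 genes and 0.00 over all genes, 9 lay above the upper quartile of all genes and 8 below the lower. EDA2R had 0 reads in all 8 libraries. Adrenergic markers had 10 of 14 lower and 0 higher here, with a sum of 2451 to 2550 CPM in control and 1999 to 2083 CPM in knockdown libraries, and mesenchymal markers 8 of 10 higher and 2 lower, with a sum of 2766 to 2818 CPM in control and 3043 to 3126 CPM in knockdown libraries. Ribosomal protein reads made up 3.77 to 3.88% of the knockdown and 4.04 to 4.16% of the control libraries. The part of markers and of this share in the changes was not tested.

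CDKN1A had the largest rise, from 18.0, 17.5, 16.2 and 16.6 CPM in controls to 33.8, 32.7, 31.3 and 31.6 CPM after knockdown (1.90-fold, log2 fold change 0.92 ± 0.05, adjusted p = 5.29e-17). The spread within each group was small beside the gap between them. PLK2, PLK3 and BTG2 fell in SK-N-AS (-0.29 ± 0.05, -0.29 ± 0.07 and -0.18 ± 0.04), each with knockdown libraries below all controls. CCNG1 was at the threshold (-0.09 ± 0.04, adjusted p = 0.0483) and lost its call without any 1 of the knockdown libraries or of control libraries 2 to 4 (adjusted p = 0.0542 to 0.186). DESeq2 (0.0534), median-ratio scaling (0.0572), no filter on low counts (0.0689) and a filter at a mean of 1 CPM (0.0604) ended it too. MDM2 stood at 51.9, 62.0, 59.7 and 57.1 CPM in control and 60.1, 53.8, 61.5 and 56.0 CPM in knockdown libraries, which overlapped (log2 fold change 0.01 ± 0.05, adjusted p = 0.938), and PPM1D was not called (-0.05 ± 0.05, adjusted p = 0.453).

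FAS rose from 4.07, 5.13, 3.30 and 4.81 to 6.24, 5.69, 5.89 and 6.38 CPM (log2 fold change 0.51 ± 0.11, adjusted p = 0.000213), without overlap, while ACTA2 went from 9.10 ± 1.39 to 17.1 ± 0.307 CPM (SD, n = 4 each). TNFRSF10B rose from 132, 130.0, 128 and 136 to 171, 165, 161 and 166 CPM (log2 fold change 0.33 ± 0.03, adjusted p = 1.16e-11). SUSD6 also rose from 18.7 ± 1.45 to 22.7 ± 1.17 CPM (0.26 ± 0.06, adjusted p = 0.000336). PHLDA3 was not called (0.43 ± 0.26, adjusted p = 0.228). In the apoptosis group 0 genes rose and 3 fell. CYFIP2 went from 4.16, 4.26, 4.10 and 4.26 CPM to 2.34, 2.11, 2.22 and 2.53 CPM, its largest fall in the 3 experiments (log2 fold change -0.87 ± 0.11, adjusted p = 9.07e-08). AEN fell from 42.8, 42.8, 42.0 and 43.9 to 36.1, 34.8, 35.1 and 33.5 CPM (log2 fold change -0.30 ± 0.04, adjusted p = 3.15e-07) and BAX fell as well (-0.15 ± 0.04, adjusted p = 0.00145). BBC3 stood at 6.67, 5.60, 5.90 and 6.60 CPM in control and 6.57, 6.28, 5.25 and 5.15 CPM in knockdown libraries (-0.09 ± 0.09, adjusted p = 0.515), which overlapped, and TP53INP1, TRIAP1 and SPATA18 were not called either. PMAIP1 was not called (-0.16 ± 0.07, adjusted p = 0.0886) but was lower without control library 1 (0.00614).

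RPS27L (0.27 ± 0.06), TP53I3 (0.19 ± 0.05), FBXO22 (0.12 ± 0.04) and ZMAT3 (0.17 ± 0.05) rose in SK-N-AS, and FDXR fell (-0.29 ± 0.06, adjusted p = 0.000268). ACER2 went from 1.61, 1.13, 1.13 and 1.01 CPM to 1.95, 1.76, 1.60 and 1.67 CPM (log2 fold change 0.50 ± 0.17, adjusted p = 0.0228). Its groups overlapped, as did those of ZMAT3. The ACER2 call was lost without knockdown library 1 or control library 3 or 4 (adjusted p = 0.0735 to 0.092), that of ZMAT3 without knockdown library 4 or control library 1 (0.0909 and 0.0981) and that of FBXO22 without control library 1 (0.0524). XPC fell by little (-0.12 ± 0.05, adjusted p = 0.0396), a call lost without knockdown library 1, 3 or 4 or control library 1, 2 or 4 (0.0659 to 0.146). With no filter on low counts the calls of XPC (0.0591) and FBXO22 (0.0505) were lost. POLH was not called (0.12 ± 0.05, adjusted p = 0.0554) and passed without knockdown library 2 (0.0406) or control library 1 (0.048). It also passed with DESeq2 (0.042), median-ratio scaling (0.0494) and a filter at a mean of 1 CPM (0.0324). DDB2, RRM2B, SESN1 and TIGAR were not called.

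**Figure D4:**
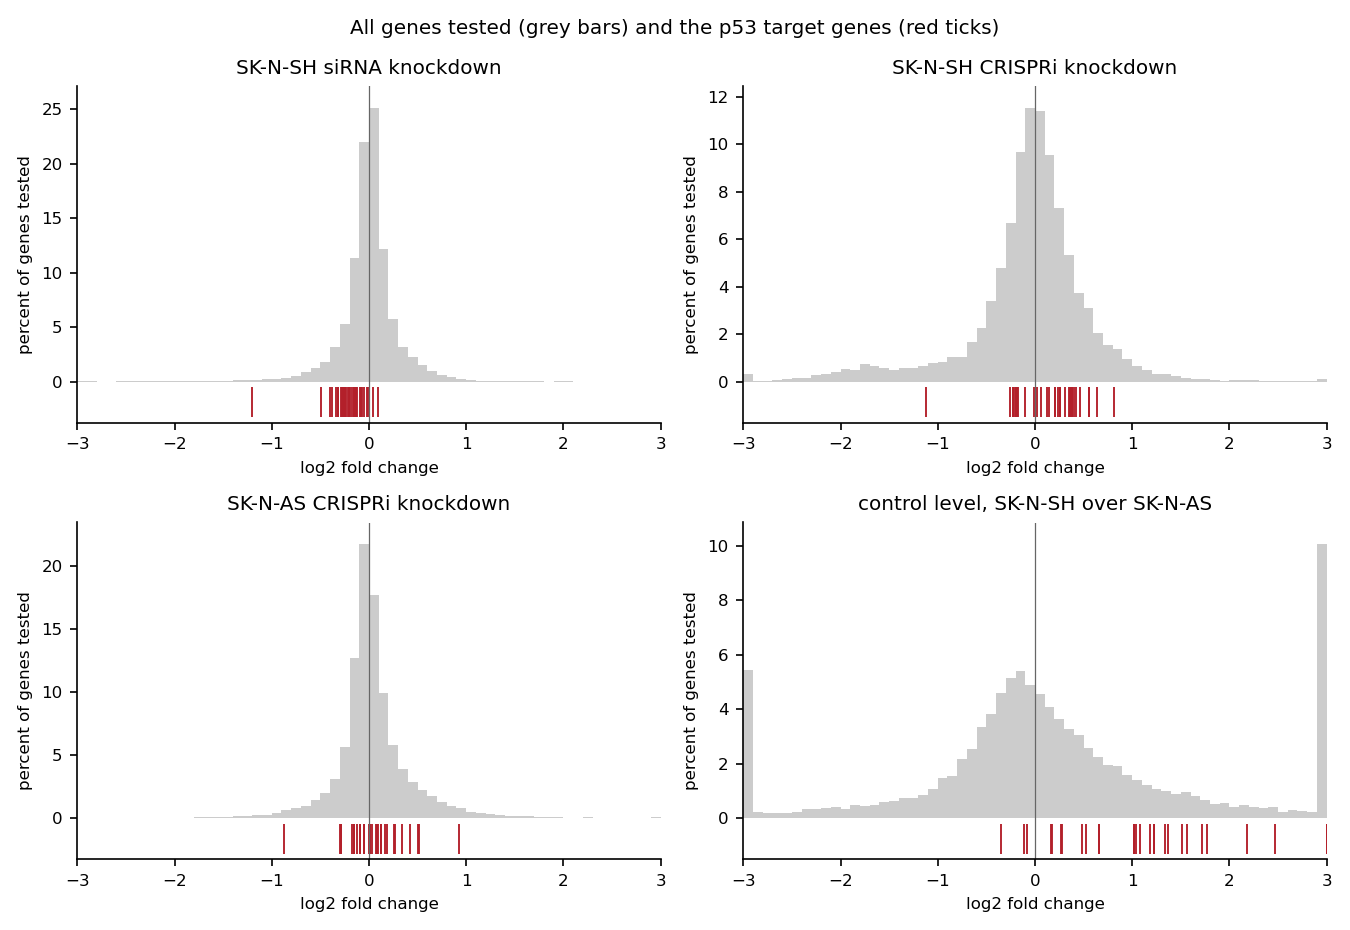
Distribution of log2 fold changes over all genes tested (grey bars, percent of genes per bin of 0.1) with the p53 target genes as red ticks, for the 3 knockdowns and for control levels of SK-N-SH over SK-N-AS. Differences beyond 3 in size are drawn in the end bins. With siRNA 24 of 33 ticks lie below the lower quartile of all genes. In SK-N-SH CRISPRi 16 of 33 lie above the upper quartile and 1 below the lower. In SK-N-AS 9 of 32 lie above the upper quartile and 8 below the lower. The control comparison has 22 of 33 above the upper quartile and 0 below the lower.

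Within SK-N-SH the siRNA and CRISPRi responses of the p53 target genes were compared by an interaction term, each experiment against its own controls. The response was lower with siRNA than with CRISPRi for 21 of 33 genes, against 15.1% of 23287 genes, and higher for 1, SPATA18 (1.07 ± 0.22), against 16.4% (31.4% in either direction). The median difference was -0.45 (log2) beside 0.06 over all genes. With library totals alone 17 were lower and 6 higher. All genes then split 2243 lower to 6080 higher in place of 3506 to 3811, with a median of 0.22. The largest differences were those of BTG2 (-1.09 ± 0.10, adjusted p = 1.35e-10), PLK2 (-0.93 ± 0.07, adjusted p = 2.75e-13), PHLDA3 (-0.84 ± 0.09, adjusted p = 1.13e-08), CDKN1A (-0.83 ± 0.07, adjusted p = 1.4e-11) and FAS (-0.77 ± 0.11, adjusted p = 3.83e-07). Calls were opposite in the 2 experiments for 13 genes, namely CDKN1A, PLK2, PLK3, BAX, PMAIP1, TP53INP1, FAS, TNFRSF10B, EDA2R, PHLDA3, RRM2B, TP53I3 and ZMAT3. The share of all genes with opposite calls was not computed. BBC3, AEN and CYFIP2 fell in both, and for these 3 the difference between the responses did not pass (-0.04 ± 0.12, adjusted p = 0.884; 0.05 ± 0.07, adjusted p = 0.701; 0.05 ± 0.07, adjusted p = 0.663). It passed, with library totals alone, for AEN (0.22, adjusted p = 0.0121) and CYFIP2 (0.22, adjusted p = 0.0102). Of the called differences TRIAP1 was lost without SK-N-SH CRISPRi control library 3 (0.066) and with library totals alone (0.281), and POLH without SK-N-SH CRISPRi control library 2 (0.0603) and with library totals alone (0.497). MDM2 and DDB2 were lost with library totals alone (0.368 and 0.105). FDXR passed without the 3 siRNA libraries low in ribosomal protein reads (-0.27, adjusted p = 0.0192), CCNG1 and SESN1 without SK-N-SH CRISPRi control library 1 (0.0478 and 0.0303), XPC without siRNA knockdown library 3 (0.0375) and TIGAR without siRNA knockdown library 1 (0.0329). Across the 33 genes the log2 fold changes of the 2 experiments had Pearson r = 0.00341 and Spearman rho = -0.112, and 12 had the same sign, a description over genes that share libraries and are not independent. Over the 14973 genes tested in both, r was -0.223 and 41.8% had the same sign.

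Between the 2 lines under CRISPRi, the response was higher in SK-N-SH for 13 genes, against 16% of 19862 genes, and lower for 2, against 14.7% (30.7% in either direction). EDA2R, without reads in SK-N-AS, could not be compared. With library totals alone 9 were higher and 8 lower. All genes then split 1813 higher to 4932 lower in place of 3178 to 2920, with a median of -0.15. The 2 genes with a lower response in SK-N-SH were CDKN1A (-0.28 ± 0.06, adjusted p = 9.29e-05) and SPATA18 (-1.16 ± 0.31, adjusted p = 0.00329), and ACER2 and SESN1 joined them without SK-N-SH CRISPRi control library 1 (adjusted p = 0.0105 and 0.0378) or SK-N-AS control library 1 (0.0234 and 0.0419). The largest differences in the other direction were PLK2 (1.11 ± 0.06, adjusted p = 1.02e-19), PLK3 (0.67 ± 0.10, adjusted p = 5.89e-07), CYFIP2 (0.66 ± 0.09, adjusted p = 1.79e-07) and PMAIP1 (0.63 ± 0.10, adjusted p = 9.8e-07). MDM2 also differed (0.21 ± 0.07, adjusted p = 0.0168), a call lost without SK-N-SH CRISPRi knockdown library 1 (0.058) or control library 2 (0.0648) and with library totals alone. FDXR, RRM2B and SUSD6 lost theirs with library totals alone (0.142, 0.066 and 0.165). For TNFRSF10B the difference did not pass (-0.01 ± 0.05, adjusted p = 0.955), but it did with library totals alone (-0.15, adjusted p = 0.0111). Both experiments called CDKN1A, FAS, TNFRSF10B, SUSD6, RPS27L, TP53I3 and ZMAT3 higher and CCNG1, AEN and CYFIP2 lower, and PLK2, PLK3, BAX and XPC went in opposite directions. Across 32 genes r was 0.285 and rho 0.3, and 19 had the same sign. Over all 14236 genes tested in both r was 0.274 and 63.2% had the same sign. The shares of all genes called alike or in opposite directions were not computed.

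AEN and CYFIP2 were called lower in all 3 experiments, and no gene of the 33 was higher in all 3. The siRNA call of AEN was lost without 6 of the 10 single libraries, with library totals alone and with a block for replicate number. The share of all genes called alike in all 3 was not computed. AEN and FAS, the 2 genes with a response element in a promoter window, both fell with siRNA. Under CRISPRi they moved apart: FAS rose in both experiments and AEN fell in both. Of the genes with a decamer, DDB2 fell with siRNA and was not called under CRISPRi, PLK2 rose in SK-N-SH CRISPRi and fell in the other experiments, RPS27L rose in both CRISPRi experiments, SESN1 fell in SK-N-SH CRISPRi and FDXR fell in SK-N-AS.

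Of a list of 18 genes of the pathway's regulators, 0 of 17 tested were called with siRNA, where the smallest adjusted p were those of the kinase gene ATM (0.13 ± 0.04, adjusted p = 0.0742) and the ubiquitin ligase gene RCHY1 (0.15 ± 0.06, adjusted p = 0.121). Of these regulators 3 rose and 7 fell of 17 in SK-N-SH CRISPRi, where 27.7% of all genes rose and 28% fell. In SK-N-AS 0 rose and 3 fell of 16, where 15.2% of all genes rose and 15.5% fell. The control levels of this list were higher in SK-N-SH for 6 and lower for 9 of 17, where 40.9% of all genes were higher and 39.2% lower. CHEK1, the checkpoint kinase, fell in SK-N-SH CRISPRi (-0.45 ± 0.06), as did TP73, a p53 paralogue (-0.70 ± 0.11), and DAXX, a partner of MDM2 (-0.24 ± 0.05), and the ubiquitin ligase gene COP1 rose (0.26 ± 0.06). In SK-N-AS CDKN2A, the gene of p16 and of the MDM2 inhibitor ARF, fell (-0.53 ± 0.06), as did CHEK2 and DAXX by less.

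A further list held 25 other genes known as p53 targets. With siRNA, where 2.55% of all genes rose and 6.98% fell, 0 rose and 10 fell of 21 tested, among them the stress cytokine gene GDF15 (-1.07 ± 0.08), DRAM1, an autophagy modulator (-0.68 ± 0.09), PLTP, a phospholipid transfer protein (-0.39 ± 0.05), and TRAF4 (-0.26 ± 0.04). In SK-N-SH CRISPRi (27.7% and 28% of all genes) 8 rose and 2 fell of 20, with TRIM22 (0.72 ± 0.06), IER5 (0.51 ± 0.05) and the lysosomal fucosidase gene FUCA1 (0.46 ± 0.07) up and BTG1 (-0.45 ± 0.06), a paralogue of BTG2, down. In SK-N-AS (15.2% and 15.5% of all genes) 7 rose and 3 fell of 20, with the metalloreductase gene STEAP3 (0.41 ± 0.05) and IER5 (0.21 ± 0.04) up and TRAF4 (-0.28 ± 0.04) and PRKAB1 (-0.14 ± 0.03) down. Control levels of this list were higher in SK-N-SH for 12 and lower for 5 of 20, beside 40.9% and 39.2% of all genes (80.1% in either direction).

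Genes of the cell cycle that p21 and the DREAM complex repress, 15 in all, had 2 rises and 0 falls with siRNA (2.55% and 6.98% of all genes), BUB1 (0.13 ± 0.04, adjusted p = 0.0474) and KIF23 (0.14 ± 0.04, adjusted p = 0.0344). In SK-N-SH CRISPRi (27.7% and 28% of all genes) 0 rose and 10 fell, among them E2F1 (-0.59 ± 0.05), MCM5 (-0.50 ± 0.04), MYBL2 (-0.31 ± 0.04) and BIRC5 (-0.23 ± 0.04), and in SK-N-AS (15.2% and 15.5%) 0 rose and 3 fell, E2F1 (-0.42 ± 0.04), MYBL2 (-0.30 ± 0.03) and MCM5 (-0.19 ± 0.03). These are beside the CDKN1A changes of -0.20, 0.63 and 0.92 in the same order. Whether the p21 level bears on them was not tested.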

How the data were processed

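RNA was sequenced from 24 libraries of 2 established human neuroblastoma lines in 3 experiments. The authors deposited whole-number read counts per gene in 1 table for each experiment, and per the submitters' processing notes the tools named were bcl2fastq 2.20.0.422 and 2.20, CASAVA, FastQC 0.11.8, STAR 2.6.1d and featureCounts 1.5.1, with the genome build GRCh38. Neither the release of the annotation nor whether reads were counted by strand is stated in the sources at hand. Per the labels' protocols the CRISPRi libraries were made with Illumina Stranded mRNA Prep, while the siRNA protocol covers both stranded and non-stranded libraries, so overlapping genes are treated as uncertain.

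Samples were grouped by title. Counts as deposited were filtered with filterByExpr (minimum count 10, minimum total 15), scaled by TMM and fitted with edgeR 4.0.16 (quasi-likelihood, robust) in R 4.3.3, with Benjamini-Hochberg adjustment over all genes and a threshold of 0.05. Standard errors are the size of the log2 fold change over the square root of F. Each knockdown was fitted on its own table. The comparisons of responses (interaction terms) and of control levels used the genes shared by the tables, joined by Ensembl identifier. Alternatives were DESeq2 1.42.0, other scalings and filters, leaving out each library and a replicate block. The procedure was tested on simulated counts with the same dispersion, the spread between libraries, for every gene. Real libraries may differ from that setting, so the test bears on the code and not on the calls. Same-numbered knockdown and control libraries had correlations of deviations from -0.136 to 0.0477. No shared effect of the replicate number was thus seen, and the main fits do not pair the samples. These values cannot tell whether same-numbered libraries were prepared together. Among all pairs of a knockdown and a control library the highest correlation was 0.295, between siRNA knockdown library 4 and control library 5.

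The 33 genes, their roles and the pathway and marker lists were chosen with earlier results of these data known. All 33 genes are named. From each pathway list up to 4 genes per experiment with the smallest adjusted p are named (2 where none was called), and values per library are given for the 6 largest called changes and for CDKN1A, MDM2 and BBC3. Promoter windows came from RefSeq (GRCh38.p14). A few genes of the pathway and marker lists are not reported here.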

Additional observations from a re-analysis of the deposited data

Results flagged for a closer look

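In 5 of 130 sets, each the levels of 1 gene in 1 group of libraries, 1 library stood apart from the rest. Chance flags about 1 set in 20. The SK-N-SH CRISPRi groups were too small for this rule and were not examined. In SK-N-AS control library 2 SUSD6 was 16.56 CPM beside 19.145 to 19.605 CPM in the other controls, and TIGAR was 5.531 CPM beside 3.9005 to 3.986 CPM. TP53INP1 was 17.479 CPM in SK-N-AS control library 3 beside 16.659 to 16.772 CPM. In the siRNA controls EDA2R was 43.275 CPM in library 1 beside 48.361 to 49.456 CPM, and PLK2 was 66.408 CPM in library 5 beside 71.284 to 72.788 CPM.

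The response to knockdown differed between siRNA and CRISPRi in SK-N-SH by the interaction test for 22 genes (log2 response with siRNA less that with CRISPRi). Among arrest and feedback genes the difference was -0.83 for CDKN1A, -1.09 for BTG2, -0.49 for GADD45A, -0.93 for PLK2, -0.67 for PLK3 and -0.27 for MDM2. In the apoptosis group it was -0.52 for BAX, -0.73 for PMAIP1, -0.58 for TP53INP1, -0.30 for TRIAP1 and, with the other sign, 1.07 for SPATA18. It was -0.77 for FAS, -0.45 for TNFRSF10B, -0.62 for EDA2R, -0.84 for PHLDA3 and -0.50 for SUSD6 among membrane genes. In the repair and nucleotide group it was -0.32 for DDB2, -0.25 for POLH, -0.65 for RRM2B and -0.64 for RPS27L. For metabolic and RNA-binding genes it was -0.70 for TP53I3 and -0.34 for ZMAT3. The calls of TRIAP1 and POLH were each lost without 1 SK-N-SH CRISPRi control library (adjusted p = 0.066 without library 3 and 0.0603 without library 2), and those of TRIAP1, POLH, MDM2 and DDB2 with library totals alone.

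Between the lines under CRISPRi the response differed for 15 genes (SK-N-SH less SK-N-AS). The log2 difference was -0.28 for CDKN1A, 0.32 for GADD45A, 1.11 for PLK2, 0.67 for PLK3 and 0.21 for MDM2. It was 0.42 for BAX, 0.63 for PMAIP1, 0.44 for TP53INP1, -1.16 for SPATA18, 0.66 for CYFIP2 and 0.31 for SUSD6. It was 0.39 for XPC, 0.34 for RRM2B, 0.32 for FDXR and 0.38 for TP53I3. The MDM2 call was lost without SK-N-SH CRISPRi knockdown library 1 (adjusted p = 0.058) or control library 2 (0.0648), and those of MDM2, FDXR, RRM2B and SUSD6 with library totals alone.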

How the results depend on the processing

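Over the alternatives 14 of the 19 siRNA calls, 20 of the 26 SK-N-SH CRISPRi calls, 13 of the 18 SK-N-AS calls, 18 of the 22 differences between siRNA and CRISPRi responses, 11 of the 15 differences between the lines' responses, 29 of the 30 calls between control levels of the lines and 21 of the 27 between siRNA and CRISPRi controls held in every setting run. With library totals alone the genes with a higher response to siRNA than to CRISPRi numbered 6 in place of 1, and those with a lower response in SK-N-SH than in SK-N-AS 8 in place of 2. Over all genes the same counts moved too, to 6080 in place of 3811 and to 4932 in place of 2920. Genes lower in SK-N-SH than in SK-N-AS controls numbered 3 with no filter on low counts and 3 with the siRNA controls in place of the CRISPRi controls. With the latter TIGAR (-1.12) and TP53I3 (0.54) reversed; the cause was not tested. Leaving out 1 library at a time, the genes with a higher response to siRNA numbered 1 to 3 (3 without SK-N-SH CRISPRi control library 1), those with a lower response in SK-N-SH than in SK-N-AS 2 to 4, and those lower in SK-N-SH controls 1 to 2 (2 without SK-N-SH CRISPRi control library 1 or 2). In the same way 14 to 22 genes fell with siRNA, 19 to 20 rose and 5 to 7 fell in SK-N-SH CRISPRi, and 8 to 10 rose and 7 to 9 fell in SK-N-AS. Calls over all genes ranged too, from 1406 to 2515, 7776 to 8449 and 5149 to 5900 in that order. They ranged from 6418 to 7483 between siRNA and CRISPRi responses and 5396 to 6097 between the lines' responses. Between the lines' controls they ranged from 13555 to 14526.

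With the replicate block 15 genes fell and 0 rose with siRNA (1532 genes called in all), 19 rose and 6 fell in SK-N-SH CRISPRi (8460 in all) and 9 rose and 9 fell in SK-N-AS (5894 in all). The block left 1 gene higher and 21 lower between siRNA and CRISPRi responses (6837 genes called in all). Between the lines it left 13 higher and 2 lower (6002 in all). No shared effect of the replicate number was seen in the correlations given above, and the main fits do not pair the samples. SK-N-AS levels of PHLDA3, SPATA18 and EDA2R were too low for a small change to be detectable.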
